A study of Mus musculus with 6 samples.

Results

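The mouse mitochondrial genome encodes 37 genes, and all 37 were present among the 26776 genes of the expression table, chosen by gene names that start with mt-. They comprise 13 messenger RNAs (mRNAs) for subunits of the respiratory chain and the ATP synthase, 2 ribosomal RNAs (rRNAs) and 22 transfer RNAs (tRNAs). RNA was sequenced from LT-HSCs, long-term haematopoietic stem cells of the bone marrow, which sustain blood formation. The donors were Trim47+/eGFP mice, whose genotype name places eGFP, a green fluorescent protein, at an allele of the ubiquitin ligase gene Trim47. All libraries came from this genotype. Cells with high fluorescence (eGFPhi, 3 libraries) were compared with cells with low fluorescence (eGFPlo, 3 libraries), and the labels list no treatment other than the sort. The sources used here give neither age nor sex, nor the number or pooling of animals, nor the gate for LT-HSCs. Whether replicates are separate animals is also not stated, so a p-value reflects just the spread among these 6 libraries, which may be technical.

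Inside the organelle both strands of this small circular genome are transcribed by the polymerase Polrmt into long RNAs that hold many genes. tRNA sequences lie between most mRNAs and rRNAs, and cutting at each end of a tRNA, by RNase P and by Elac2, releases the RNAs on either side. The heavy strand is the template of most genes, and the light strand that of mt-Nd6 and a set of tRNAs. LT-HSCs are described as cells that rely largely on glycolysis, with little use of oxidative phosphorylation.

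Totals were 11221070 to 26058391 counts per library. Levels of a gene are CPM, its count relative to the library total, scaled with TMM factors, and mean ± SD is over n = 3 libraries in each group. Fold changes are eGFPhi over eGFPlo, with the standard error (SE) on the log2 scale, from edgeR's quasi-likelihood test, and adjusted p-values are Benjamini-Hochberg values over all 18081 genes tested. TMM sets the bulk of genes near no change (median log2 fold change 0.00346), so every rise or fall below is relative to that bulk. Positions are on build GRCm38. In bulk RNA, fewer cells of a type and less RNA per cell cannot be told apart.

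The populations differed in marker genes of other cells. A gene rose or fell here at an edgeR adjusted p under 0.05, by which 32.3% of all tested genes rose and 31.7% fell. Of 12 haematopoietic stem cell markers 11 rose, with summed levels of 3509 to 3721 CPM in eGFPhi and 1670 to 1702 CPM in eGFPlo libraries. All 6 granulocyte-monocyte progenitor markers fell (280.4 to 288 CPM in eGFPhi, 5220.2 to 5324 CPM in eGFPlo), as did all 8 B cell markers (403 to 416 CPM in eGFPhi, 3349 to 3434 CPM in eGFPlo). Of 7 T and NK cell markers 4 were tested, 3 fell and 1 rose (10.8 to 12.6 CPM in eGFPhi, 56.3 to 57.2 CPM in eGFPlo), and Cd3e, Cd3d and Cd3g had 0 counts in every eGFPhi library. Of 8 erythroid markers 6 fell, with sums of 27.8 to 30.8 CPM in eGFPhi and 47.8 to 52.3 CPM in eGFPlo. Of 6 monocyte and macrophage markers 5 fell and 1 rose, with sums of 108 to 122 CPM in eGFPhi and 142 to 156 CPM in eGFPlo. Of 6 megakaryocyte markers 5 rose and 1 fell, with sums of 304 to 315 CPM in eGFPhi and 110.5 to 118 CPM in eGFPlo. Of 6 stromal and endothelial markers 3 were tested, 2 rose and 1 fell, with sums of 67.4 to 69.96 CPM in eGFPhi and 65.6 to 71.9 CPM in eGFPlo. Most of that sum was Pecam1, which fell (means of 58.8 CPM in eGFPhi and 68.5 CPM in eGFPlo). Kdr (5.97 and 0.303 CPM) and Cxcl12 (4.33 and 0.932 CPM) rose. Of the untested markers, Lepr had 6, 13 and 14 counts in eGFPhi and 0, 0 and 0 in eGFPlo. Cdh5 had 0, 0 and 0 counts in eGFPhi and 0, 0 and 8 in eGFPlo, and Col1a1 0, 15 and 1 in eGFPhi and 0, 0 and 7 in eGFPlo. These markers move with every comparison of eGFPhi and eGFPlo given here, and their part in the results was not tested.

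Against eGFPlo cells, the mitochondrial mRNAs of eGFPhi cells differed little, the rRNAs were slightly higher, and most measurable tRNAs were higher. Of the 30 genes with enough counts to be tested, 14 rose, 7 fell and 9 did not pass the threshold of 0.05 (edgeR). Calls were common in the whole table, where 64% of genes passed, 32.3% higher and 31.7% lower, so the count of members called was close to the background. The members differed in size of change by class. The median log2 fold change was 0.96 for the 15 tested tRNAs, 0.08 for the 2 rRNAs and -0.04 for the 13 mRNAs. Among those 15 tRNAs, mt-Tq, mt-Ta and mt-Tr reached the minimum count in eGFPhi libraries alone. The eGFPlo counts of mt-Te (8, 10 and 7) would not have passed the filter on low counts without its eGFPhi libraries. The tRNA median and count thus describe the measurable tRNAs and not all 22. Only 6 members changed at least 2-fold, none of them an mRNA or rRNA, and mt-Tq, mt-Ta and mt-Te were among them. The libraries of both groups did not overlap for 24 of the 30 genes, 16 higher and 8 lower in eGFPhi, where 69.8% of all tested genes did not overlap. Without eGFPhi replicate 1 or without eGFPlo replicate 3 only 4 members fell. With a coefficient of variation between libraries of 0.2 assumed in place of the estimated 0.0941, 8 members rose and 1 fell, and all 9 were tRNAs. With DESeq2 or with a stricter filter on low counts 9 members rose.

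**Figure D1:**
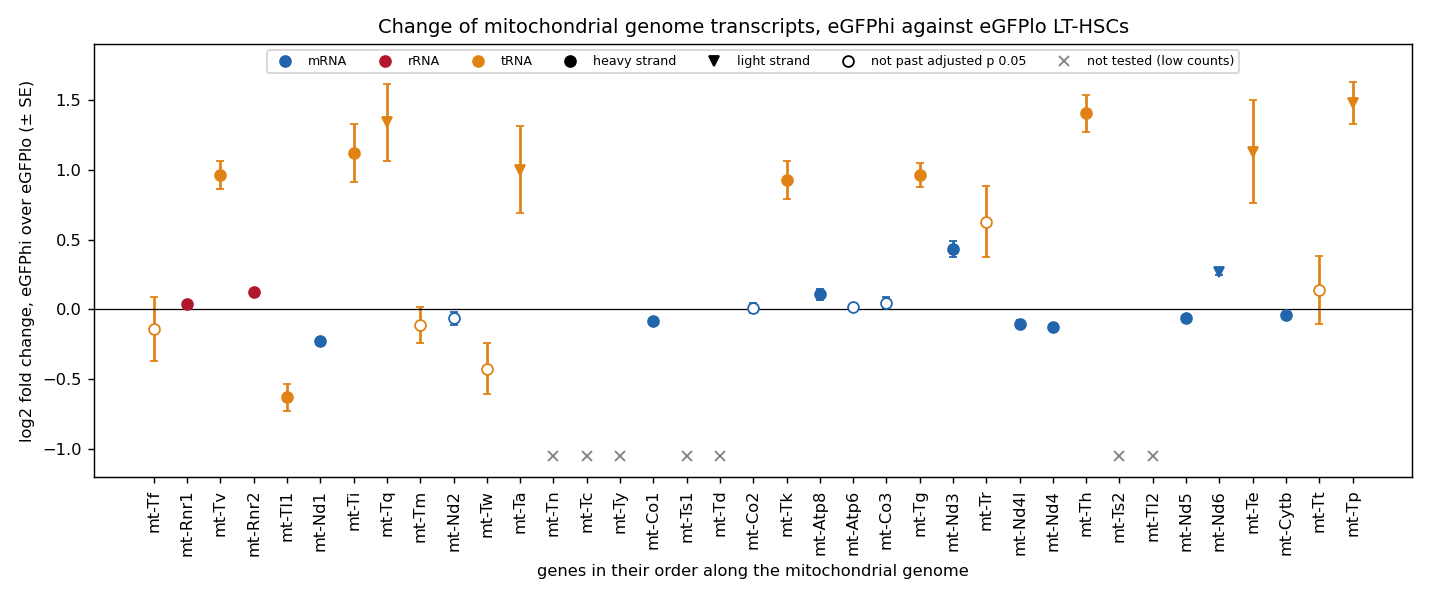
Log2 fold change (eGFPhi over eGFPlo, ± SE) of each mitochondrial gene in its order along the genome, by class (colour) and strand (circle or triangle), with open symbols for genes not past the threshold and crosses, which carry no value, for 7 tRNAs not tested. The rRNAs and mRNAs lie between -0.22 and 0.43, whereas the tRNAs run from -0.63 for mt-Tl1 to 1.48 for mt-Tp.

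The rRNAs of the mitochondrial ribosome were by far the most abundant of these transcripts and were slightly higher in eGFPhi. mt-Rnr2, the 16S RNA of the large subunit (positions 1094 to 2675), had 81383, 81297 and 80665 CPM in eGFPhi and 75633, 72339.7 and 74786 CPM in eGFPlo libraries. The groups did not overlap, with eGFPhi higher, a 1.09-fold rise (log2 fold change 0.13, SE 0.015, edgeR adjusted p = 0.000201). mt-Rnr1, the 12S RNA of the small subunit (positions 70 to 1024), had 41572, 41221 and 41346 CPM in eGFPhi and 40596, 39866 and 40439.7 CPM in eGFPlo libraries. The groups of mt-Rnr1 did not overlap either, but the rise was 1.03-fold (log2 fold change 0.04, SE 0.0076, edgeR adjusted p = 0.00317), and it did not pass with DESeq2 (adjusted p = 0.146). With upper-quartile factors in place of TMM its log2 fold change was 0.06. Both rRNAs are cut from the same precursor, and their ratio within a library does not depend on scaling. mt-Rnr1 over mt-Rnr2 was 0.511, 0.507 and 0.513 in eGFPhi and 0.537, 0.551 and 0.541 in eGFPlo libraries. Every eGFPhi ratio lay below every eGFPlo ratio, with an exact two-sided permutation p of 0.1, the smallest that 3 libraries against 3 allow (0.167 adjusted over the 5 gene ratios computed). The libraries were made from RNA bound to poly-T beads, so rRNA counts measure molecules that were retained by that step and not the whole rRNA pool.

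Per length, the mRNAs spanned a wide range, given here as the deposited FPKM, which scales counts by gene length and library total. mt-Rnr2 and mt-Rnr1 averaged 51279 and 43334 FPKM in eGFPhi, against 46783 and 42062 FPKM in eGFPlo. Among mRNAs in eGFPhi libraries mt-Atp8 was highest (3959 to 4029 FPKM), followed by mt-Co1 (3045 to 3053), mt-Atp6 (2568 to 2572), mt-Cytb (2305 to 2330.5) and mt-Co2 (1768 to 1863). mt-Nd1 (1122 to 1131 FPKM) and mt-Nd5 (1115 to 1123 FPKM) overlapped in eGFPhi, mt-Co3 followed (1053 to 1073 FPKM), and mt-Nd4 (972 to 989 FPKM) and mt-Nd4l (972 to 988 FPKM) overlapped again. mt-Nd2 (732 to 749 FPKM), mt-Nd6 (483 to 500.4 FPKM) and mt-Nd3 (199 to 225 FPKM) were the lowest in eGFPhi. In eGFPlo libraries mt-Nd1 (1275 to 1334 FPKM) lay above mt-Nd5 (1131 to 1189 FPKM) without overlap, and mt-Nd6 (405 to 411 FPKM) and mt-Nd3 (149 to 163 FPKM) were again the lowest. In FPKM, the mRNAs of the same heavy-strand precursor stood over an order of magnitude apart at the extremes in both populations, further than any differed between populations. Those extremes are short genes, mt-Atp8 (204 bases) and mt-Nd3 (348 bases). mt-Atp8 and mt-Atp6 lie on a single RNA yet differed in FPKM, so these ranks need not follow the number of molecules.

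**Figure D2:**
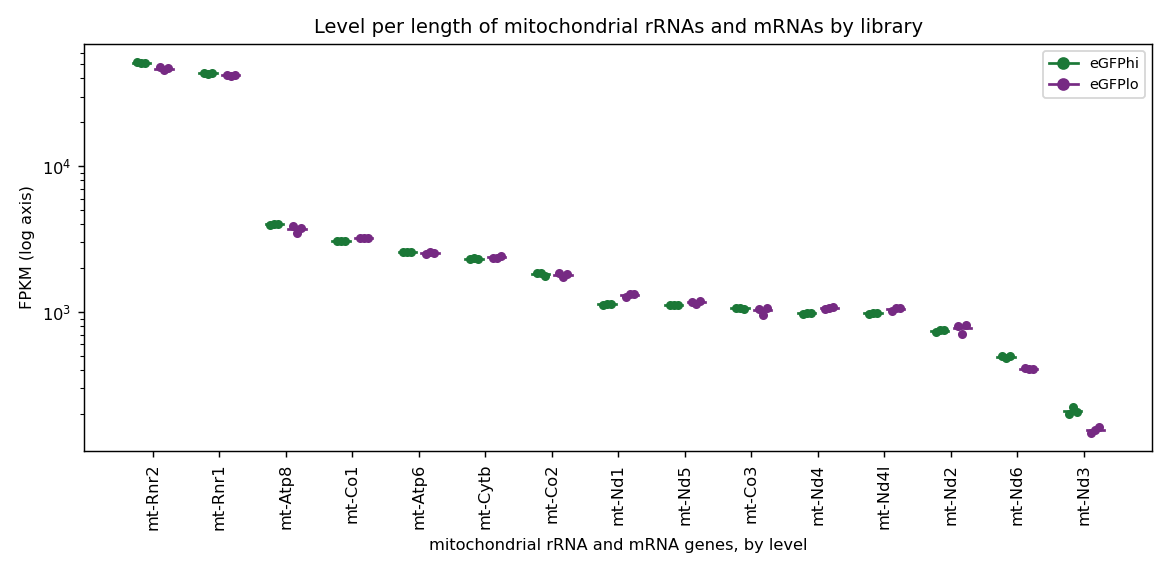
FPKM (log axis) of the 2 rRNA and 13 mRNA genes in each library, with 3 eGFPhi points left of 3 eGFPlo points per gene and a line at each mean. The order of genes is nearly the same in both groups, and mt-Nd3 and mt-Nd6 are the mRNAs with the clearest gap between groups.

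Complex I, the NADH dehydrogenase that passes electrons from NADH to ubiquinone, has 7 subunits encoded here, of which 2 rose, 4 fell and 1 did not pass. mt-Nd1, a membrane-arm subunit next to the ubiquinone site (positions 2751 to 3707), had 1072, 1081 and 1082 CPM in eGFPhi and 1223, 1273 and 1283 CPM in eGFPlo libraries. All eGFPhi libraries were lower, and the fall was 1.17-fold, the largest among the mRNAs (log2 fold change -0.22, SE 0.02, edgeR adjusted p = 5.57e-05). mt-Nd3, whose product is a small membrane subunit (positions 9459 to 9806), had 69.1, 78.2 and 72.1 CPM in eGFPhi and 51.9, 53.7 and 56.9 CPM in eGFPlo libraries. It was higher in every eGFPhi library, by 1.35-fold, the largest rise among the mRNAs (log2 fold change 0.43, SE 0.06, edgeR adjusted p = 0.000463).

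The remaining complex I mRNAs of the heavy strand encode membrane-arm subunits and moved little. mt-Nd4 (positions 10167 to 11544) had 1337, 1359 and 1363 CPM in eGFPhi and 1440.0, 1479 and 1499 CPM in eGFPlo libraries, with every eGFPhi library lower (log2 fold change -0.12, edgeR adjusted p = 0.000761). mt-Nd4l, read in the same transcript just upstream, had 288, 294 and 291 CPM in eGFPhi and 300.3, 318 and 319 CPM in eGFPlo libraries (log2 fold change -0.10, edgeR adjusted p = 0.0163). Its groups did not overlap either, and it fell by nearly the same amount as mt-Nd4. mt-Nd4l over mt-Nd4 was 0.216, 0.216 and 0.214 in eGFPhi and 0.209, 0.215 and 0.213 in eGFPlo libraries, ranges that overlap (exact permutation p = 0.2). mt-Nd5 had 2031, 2050.2 and 2046 CPM in eGFPhi and 2146, 2066 and 2179 CPM in eGFPlo libraries (log2 fold change -0.06, edgeR adjusted p = 0.0296), without overlap. mt-Nd2 had 758, 778 and 777 CPM in eGFPhi and 831, 738 and 849.8 CPM in eGFPlo libraries, and eGFPlo replicate 2 lay below all others. It did not pass (log2 fold change -0.06, edgeR adjusted p = 0.281), but without eGFPlo replicate 2 it did, as a fall (log2 fold change -0.13, adjusted p = 0.00248). The call of mt-Nd4l was lost without eGFPhi replicate 1 (adjusted p = 0.0562), without eGFPlo replicate 3 (0.0508) and with no filter (0.0707), and that of mt-Nd5 without any single library other than eGFPlo replicate 2 (0.0595 to 0.118), with DESeq2 (0.0626), with no filter or a stricter filter on low counts (0.14 and 0.0916) and with upper-quartile factors (0.155, log2 fold change -0.04).

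mt-Cytb, the cytochrome b of complex III and its single subunit encoded here, had 2633, 2669 and 2643 CPM in eGFPhi and 2698, 2701 and 2786 CPM in eGFPlo libraries. The groups did not overlap, and the fall was 1.03-fold (log2 fold change -0.04, SE 0.016, edgeR adjusted p = 0.0425). That call was lost with DESeq2 (adjusted p = 0.134), with upper-quartile factors (0.321, log2 fold change -0.02), with no filter or a stricter one (0.285 and 0.174), and without eGFPhi replicate 1, eGFPhi replicate 3 or eGFPlo replicate 3 (0.0818 to 0.168); log2 fold changes without a library ran from -0.05 to -0.03. Set against mt-Nd1 in the same library, mt-Cytb stood at 2.46, 2.47 and 2.44 in eGFPhi and 2.21, 2.12 and 2.17 in eGFPlo. This ratio was 1.13-fold higher in eGFPhi, without overlap, at the smallest possible exact permutation p of 0.1 (0.167 adjusted).

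Of the 3 catalytic-core subunits of complex IV, the cytochrome c oxidase, 1 fell and 2 did not pass. mt-Co1, which holds the haem and copper centre where oxygen is reduced (positions 5328 to 6872), had 4698, 4723 and 4709 CPM in eGFPhi and 4964, 4981 and 4987 CPM in eGFPlo libraries. The spread within groups was small and the groups did not overlap, so a fall of 1.06-fold passed (log2 fold change -0.08, SE 0.0085, edgeR adjusted p = 0.000126). mt-Co2, which receives electrons from cytochrome c, had 1263, 1276 and 1209 CPM in eGFPhi and 1279, 1182 and 1260.0 CPM in eGFPlo libraries. Its ranges overlapped (log2 fold change 0.01, SE 0.03, edgeR adjusted p = 0.797), and the sign depended on which library was left out. mt-Co3 had 832, 842 and 825 CPM in eGFPhi and 824, 752 and 839.8 CPM in eGFPlo libraries, also overlapping (log2 fold change 0.05, SE 0.04, edgeR adjusted p = 0.301).

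The ATP synthase takes 2 subunits from this genome, and 1 of them rose. mt-Atp6, the subunit of the proton channel, had 1749.5, 1753 and 1748 CPM in eGFPhi and 1708, 1746 and 1746 CPM in eGFPlo libraries. The ranges were barely apart and the gene did not pass (log2 fold change 0.01, SE 0.014, edgeR adjusted p = 0.402); with upper-quartile factors it did, as a rise (log2 fold change 0.04, adjusted p = 0.0326). mt-Atp8, a short subunit of the membrane sector, had 807, 823 and 816 CPM in eGFPhi and 792, 707 and 771 CPM in eGFPlo libraries. It passed as a 1.08-fold rise without overlap (log2 fold change 0.11, SE 0.04, edgeR adjusted p = 0.0438). That call was lost without any single eGFPhi library or without eGFPlo replicate 3 (adjusted p = 0.063 to 0.111), and without eGFPlo replicate 2, which had the lowest value, the log2 fold change was 0.06. Both reading frames lie on a single RNA, and mt-Atp8 over mt-Atp6 was 0.461, 0.470 and 0.467 in eGFPhi and 0.464, 0.405 and 0.442 in eGFPlo libraries (exact permutation p = 0.2, overlapping).

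The end of the mt-Atp8 frame and the start of the mt-Atp6 frame share 43 bases (positions 7927 to 7969), shown because fragments there belong to both genes. In the shared stretch the first 3 bases are the mt-Atp6 start codon and the last 3 the mt-Atp8 stop codon.
mt-Atp8 and mt-Atp6 overlap: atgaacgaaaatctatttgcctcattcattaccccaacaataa

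The 3 mRNAs mt-Co3, mt-Nd4 and mt-Cytb encode no complete stop codon. They end on a lone T, which polyadenylation completes to UAA as general background on mitochondrial mRNAs, and their last 30 bases are shown with that T in capitals beside 2 mRNAs with an encoded stop codon in capitals.
mt-Co3: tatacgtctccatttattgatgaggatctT
mt-Nd4: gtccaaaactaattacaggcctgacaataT
mt-Cytb: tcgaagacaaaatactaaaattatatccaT
mt-Nd1: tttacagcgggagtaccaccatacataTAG
mt-Nd3: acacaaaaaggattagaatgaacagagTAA

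The mRNAs that need such a completed stop codon did not move together. mt-Nd4 fell, mt-Cytb fell by a margin that several alternatives did not hold, and mt-Co3 did not pass.

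Stretches of the nuclear genome copied from mitochondrial DNA limit some of these counts. On chromosome 1 a run of pseudogenes held sequence identical to mt-Nd4 (Gm28439), mt-Nd4l (Gm10222), mt-Co3 (Gm28437), mt-Atp6 (Gm10925) and mt-Co2 (Gm28661) over the aligned bases, and 99.71% identical to mt-Nd3 (Gm28438). These rows held counts of their own: Gm10925 held 13.03% of the counts of itself and mt-Atp6, Gm10222 12.8% with mt-Nd4l, Gm28661 10.7% with mt-Co2, Gm28438 9.84% with mt-Nd3, Gm28437 8.83% with mt-Co3 and Gm28439 4.26% with mt-Nd4. The treatment of reads with several matches is not stated in the sources used here, so the split between a gene and its copy is uncertain. With the counts of nuclear copies at least 95% identical added to the mitochondrial gene, mt-Nd3 (log2 fold change 0.41), mt-Nd4 (-0.13), mt-Nd4l (-0.10) and mt-Co1 (-0.07) kept their calls. mt-Co2 had a log2 fold change of -0.01 in that setting and mt-Atp8 came to the threshold itself (adjusted p = 0.05).

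The tRNAs carried the larger differences. Of 22 tRNA genes, 15 had enough counts to be tested, of which 9 rose, 1 fell and 5 did not pass (edgeR). Among all tested genes 32.3% rose and 31.7% fell. Of the tRNAs that rose, mt-Tq, mt-Ta and mt-Te passed the filter only with their eGFPhi libraries, which favours a rise. tRNA counts were few, 551 to 1715 per library over all 22 genes, against 199976 to 467872 for the mRNAs. Mature tRNAs carry no poly(A) tail, so after poly-T selection tRNA molecules, unprocessed precursors and carried-over RNA cannot be told apart in these counts. mt-Tm had more counts in total than mt-Tk and mt-Tp, but it did not pass and its sequence is not shown. The tRNAs shown were picked for high counts and for passing, with anticodons in capitals, 5′ to 3′ in DNA letters, from GENCODE M21 transcripts.
mt-Tg (glycine, heavy strand, positions 9391 to 9458): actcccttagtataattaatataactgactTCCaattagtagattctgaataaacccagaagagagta
mt-Tv (valine, heavy strand, positions 1025 to 1093): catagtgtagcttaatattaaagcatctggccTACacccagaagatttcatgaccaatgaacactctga
mt-Th (histidine, heavy strand, positions 11546 to 11612): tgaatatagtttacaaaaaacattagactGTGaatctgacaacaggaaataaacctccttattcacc
mt-Tk (lysine, heavy strand, positions 7700 to 7764): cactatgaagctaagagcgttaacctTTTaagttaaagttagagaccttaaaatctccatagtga
mt-Tp (proline, light strand, positions 15356 to 15422): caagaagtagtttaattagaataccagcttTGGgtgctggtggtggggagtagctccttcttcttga
mt-Tl1 (leucine, heavy strand, positions 2676 to 2750): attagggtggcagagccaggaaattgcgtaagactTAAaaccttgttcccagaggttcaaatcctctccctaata

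mt-Tg, the glycine tRNA that lies between mt-Co3 and mt-Nd3, had 13.8, 13.4 and 14.3 CPM in eGFPhi and 7.02, 6.92 and 7.36 CPM in eGFPlo libraries. Every eGFPhi library was higher, a 1.95-fold rise (log2 fold change 0.96, SE 0.09, edgeR adjusted p = 5.57e-05). mt-Tv, the valine tRNA between both rRNAs, had 11.2, 10.8 and 10.9 CPM in eGFPhi and 5.997, 5.31 and 5.59 CPM in eGFPlo libraries. It rose by the same 1.95-fold (SE 0.10, edgeR adjusted p = 9.87e-05), while the rRNAs on either side rose 1.03-fold and 1.09-fold. mt-Th, the histidine tRNA directly downstream of mt-Nd4, had 7.65, 7.61 and 7.45 CPM in eGFPhi and 3.34, 2.59 and 2.71 CPM in eGFPlo libraries. It rose 2.64-fold without overlap (log2 fold change 1.40, SE 0.13, edgeR adjusted p = 6.76e-05), while mt-Nd4 fell. mt-Tk, the lysine tRNA just upstream of mt-Atp8, rose 1.9-fold, with means of 4.91 ± 0.215 CPM in eGFPhi and 2.56 ± 0.234 CPM in eGFPlo (log2 fold change 0.93, edgeR adjusted p = 0.000639). mt-Ti (isoleucine) rose 2.17-fold at 1.59 ± 0.139 CPM in eGFPhi and 0.730 ± 0.0951 CPM in eGFPlo (edgeR adjusted p = 0.0023, and 0.0519 with DESeq2).

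mt-Tl1, the leucine tRNA between mt-Rnr2 and mt-Nd1, moved the other way. It had 7.92, 8.26 and 8.43 CPM in eGFPhi and 11.6, 13.3 and 13.2 CPM in eGFPlo libraries. All eGFPhi libraries were lower, and the fall was 1.55-fold (log2 fold change -0.63, SE 0.10, edgeR adjusted p = 0.000811). Its downstream neighbour mt-Nd1 also fell, by 1.17-fold, whereas its upstream neighbour mt-Rnr2 rose. In human mitochondria a terminator of transcription binds within this leucine tRNA gene; the mouse genes that encode that factor, Mterf1a and Mterf1b, were looked at after their values were seen. Mterf1b averaged 1.54 ± 0.0564 CPM in eGFPhi and 2.64 ± 0.507 CPM in eGFPlo (log2 fold change -0.79, edgeR adjusted p = 0.00818). Mterf1a averaged 1.75 ± 0.597 CPM in eGFPhi and 1.78 ± 0.502 CPM in eGFPlo (edgeR adjusted p = 0.777). A link between these levels and the changes of mt-Tl1, mt-Nd1 or mt-Rnr2 was not tested.

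The heavy-strand tRNAs that did not pass were mt-Tf (phenylalanine, log2 fold change -0.14), mt-Tm (methionine, -0.11), mt-Tt (threonine, 0.14), mt-Tw (tryptophan, -0.42) and mt-Tr (arginine, 0.63), with edgeR adjusted p-values of 0.0722 to 0.639. mt-Tm had 4.27, 5.11 and 4.52 CPM in eGFPhi and 4.71, 5.31 and 5.09 CPM in eGFPlo libraries, so the ranges overlapped. For mt-Tf, the first gene of the heavy-strand transcript, the sign turned without eGFPlo replicate 3. The 7 tRNAs below the filter were mt-Ts1, mt-Td, mt-Ts2, mt-Tl2, mt-Tn, mt-Tc and mt-Ty. Among them mt-Tl2, the other leucine tRNA, had 1, 1 and 1 counts in eGFPhi and 4, 9 and 6 counts in eGFPlo libraries, and mt-Tn (asparagine) had 1, 1 and 2 counts in eGFPhi and 0, 0 and 0 counts in eGFPlo libraries.

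**Figure D3:**
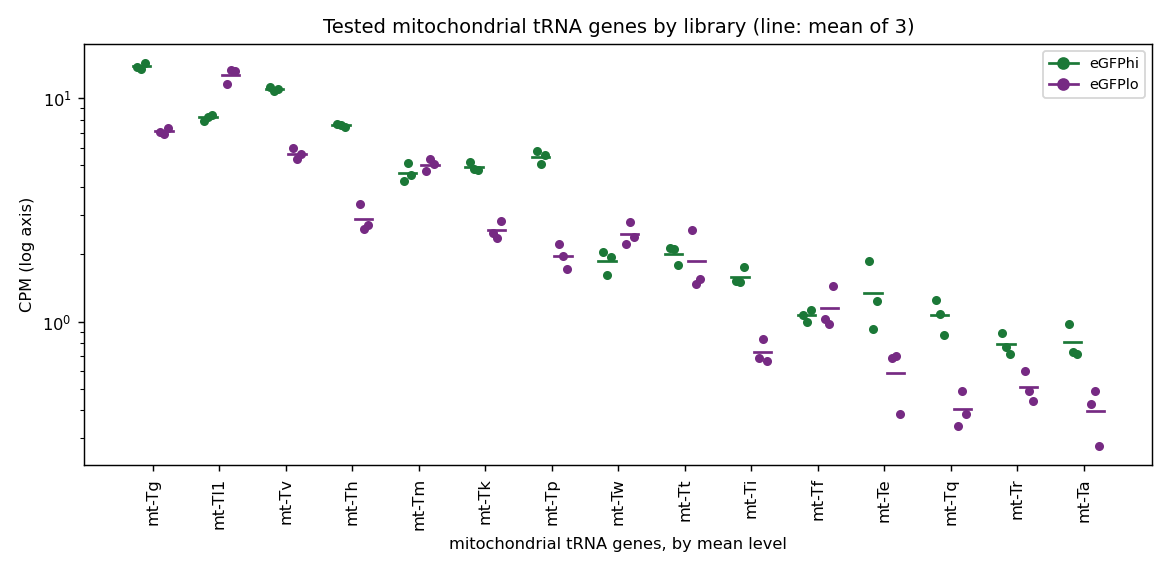
CPM (log axis) of the 15 tested tRNA genes in each library, with 3 eGFPhi points left of 3 eGFPlo points per gene and a line at each mean, ordered by mean level. mt-Tg, mt-Tv, mt-Th, mt-Tk and mt-Tp are higher in every eGFPhi library, mt-Tl1 is lower in every eGFPhi library, and the points of mt-Tm, mt-Tt and mt-Tf overlap.

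The light strand encodes mt-Nd6 and 8 tRNAs, of which mt-Nd6 and 4 tRNAs had enough counts to be tested. All 5 rose. However, mt-Tq and mt-Ta entered the test through their eGFPhi counts alone, and mt-Te would not have entered it without its eGFPhi counts. This count therefore says nothing about the strand as a whole. mt-Nd6, the single complex I subunit on this strand (positions 13552 to 14070), had 259, 251 and 257 CPM in eGFPhi and 214, 210.4 and 213 CPM in eGFPlo libraries. Every eGFPhi library was higher, a 1.20-fold rise (log2 fold change 0.27, SE 0.02, edgeR adjusted p = 5.44e-05). mt-Nd6 over mt-Nd5, the gene that faces its end on the heavy strand with 14 shared bases, was 0.128, 0.123 and 0.126 in eGFPhi and 0.0997, 0.102 and 0.0979 in eGFPlo libraries. This ratio was 1.26-fold higher in eGFPhi without overlap (exact permutation p = 0.1, the smallest possible, and 0.167 adjusted). Both counts are of RNA retained by poly-T selection, and whether retention of mt-Nd6 differed between groups was not tested. mt-Tp, the proline tRNA that starts the light-strand transcript, had 5.79, 5.07 and 5.55 CPM in eGFPhi and 2.23, 1.96 and 1.72 CPM in eGFPlo libraries. It rose 2.79-fold without overlap, the largest change of any tested member (log2 fold change 1.48, SE 0.15, edgeR adjusted p = 0.000103).

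The other light-strand tRNAs had few counts. mt-Tq (glutamine) had 14, 28 and 17 counts in eGFPhi and 4, 7 and 7 counts in eGFPlo libraries (log2 fold change 1.34, edgeR adjusted p = 0.0036). mt-Te (glutamate), next to mt-Nd6, had 21, 24 and 24 counts in eGFPhi and 8, 10 and 7 counts in eGFPlo libraries (log2 fold change 1.13, edgeR adjusted p = 0.0288). mt-Ta (alanine) had 11, 19 and 14 counts in eGFPhi and 5, 7 and 5 counts in eGFPlo libraries (log2 fold change 1.001, edgeR adjusted p = 0.0238). In CPM each was higher in every eGFPhi library. However, mt-Tq and mt-Ta, like mt-Tr, had 10 or more counts in eGFPhi libraries alone, so a difference was built into their being tested. mt-Te also passed the filter only with its eGFPhi libraries, which favours a rise. With DESeq2 mt-Tq (adjusted p = 0.0646), mt-Te (0.0969) and mt-Ta (0.222) did not pass. The call of mt-Te was also lost without eGFPhi replicate 1, eGFPhi replicate 3 or eGFPlo replicate 3 (0.0594 to 0.108), and that of mt-Ta without eGFPhi replicate 1, eGFPhi replicate 2 or eGFPlo replicate 3. The kit marks strand, but whether the counting used it is not stated in the sources used here. If it was not used, reads of light-strand genes and of heavy-strand precursor RNA over the same positions cannot be told apart.

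As shares of all counts, mitochondrial genes took 14.04% ± 0.0528 of counts in eGFPhi and 13.3% ± 0.216 in eGFPlo libraries. The rRNAs made up 12.3% ± 0.0549 in eGFPhi and 11.4% ± 0.198 in eGFPlo, and the mRNAs 1.79% ± 0.00715 in eGFPhi and 1.84% ± 0.0261 in eGFPlo. The tRNA share was 0.00674% ± 0.000158 in eGFPhi and 0.00474% ± 0.0000544 in eGFPlo, 1.42 times as large in eGFPhi. Split by strand, the tRNA share in eGFPhi was 1.34 times that in eGFPlo for the heavy strand and 2.35 times for the light strand, which rested on 50 to 218 counts per library. For each of these shares of all counts the ranges of both groups did not overlap. Relative to counts of nuclear protein-coding genes, the mRNA counts came to 2.52 to 2.54% in eGFPhi and 2.51 to 2.59% in eGFPlo libraries, which overlap. As sums over the members the shares carry no test.

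Ratios between classes within a library do not depend on scaling between libraries, and they differed between the groups as the shares did. The rRNAs held 6.91, 6.82 and 6.84 counts for each mRNA count in eGFPhi and 6.29, 6.16 and 6.13 in eGFPlo libraries. For every 1000 mRNA counts there were 3.77 ± 0.103 tRNA counts in eGFPhi and 2.57 ± 0.0637 in eGFPlo. mt-Nd6 gave 1.45 ± 0.0321 counts for every 100 heavy-strand mRNA counts in eGFPhi and 1.16 ± 0.0127 in eGFPlo. For every 1000 mt-Nd6 counts there were 36.8 ± 4.01 light-strand tRNA counts in eGFPhi and 18.9 ± 3.42 in eGFPlo, so the light-strand tRNAs were higher also relative to the mRNA of their own strand. All these ratios are of RNA retained by poly-T selection and not of whole pools.

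**Figure D4:**
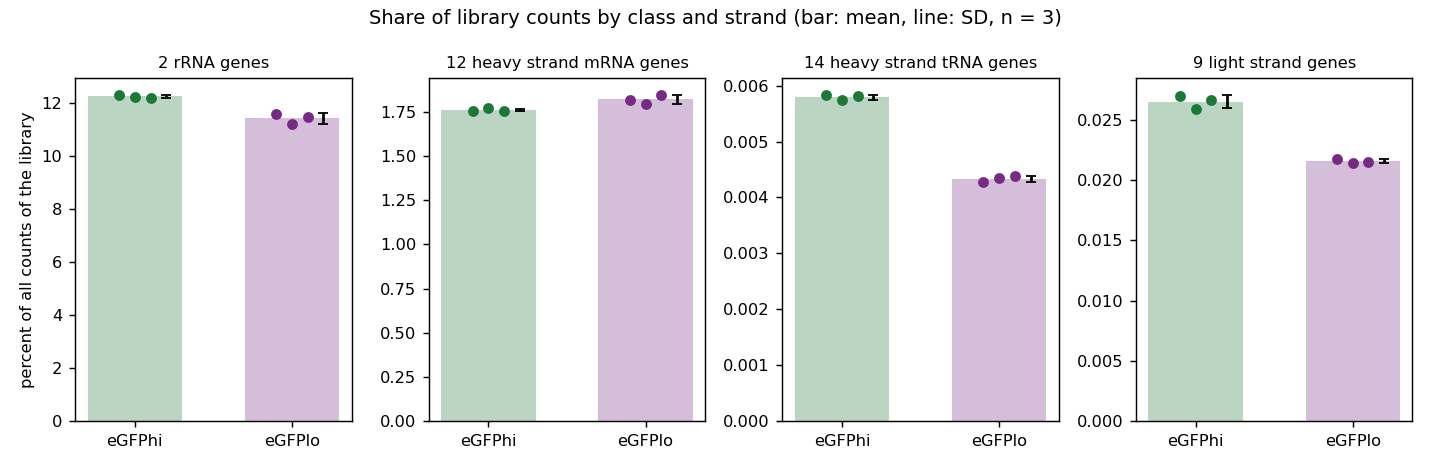
Percent of all counts of a library held by the rRNA genes, the heavy-strand mRNA genes, the heavy-strand tRNA genes and the light-strand genes, with a bar at the mean, points for the 3 libraries and a line for the SD, and eGFPhi left of eGFPlo. The axes start at 0 and differ in scale: the heavy-strand mRNA share of all counts is lower in eGFPhi, a gap that is lost relative to nuclear protein-coding counts, and the other 3 shares are higher in eGFPhi.

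Nuclear genes that transcribe and copy the mitochondrial genome did not move in a common direction. Of 23 such genes, all tested, 5 rose, 6 fell and 12 did not pass, with a median log2 fold change of -0.04 beside 0.00346 over all genes. Among all tested genes 32.3% rose and 31.7% fell, so calls were no more common in this list. Polrmt, the polymerase itself, had 19.0, 20.0 and 18.9 CPM in eGFPhi and 18.2, 24.3 and 22.0 CPM in eGFPlo libraries, which overlap (log2 fold change -0.16, SE 0.11, edgeR adjusted p = 0.227); without eGFPlo replicate 1, which had the lowest value, it passed as a fall (log2 fold change -0.26, adjusted p = 0.0306). Tfam, which packs the genome and starts transcription, had 48.8, 50.1 and 49.0 CPM in eGFPhi and 54.6, 53.9 and 53.2 CPM in eGFPlo libraries, a fall of 1.09-fold without overlap (log2 fold change -0.13, SE 0.04, edgeR adjusted p = 0.0244). The Tfam call was lost with DESeq2 (adjusted p = 0.15), upper-quartile factors (0.0531) or no filter (0.0715), and without eGFPhi replicate 1, eGFPhi replicate 3 or eGFPlo replicate 1 (0.06 to 0.0842). Dguok, a kinase that supplies deoxynucleotides to the organelle, rose 1.81-fold (18.2 ± 1.09 CPM in eGFPhi, 10.0 ± 0.085 CPM in eGFPlo), and Tfb1m, which methylates the 12S rRNA, rose 1.74-fold (10.2 ± 0.719 CPM in eGFPhi, 5.85 ± 1.31 CPM in eGFPlo). Mterf4, which targets an rRNA methyltransferase to the mitochondrial ribosome, fell 2.31-fold (4.93 ± 1.70 CPM in eGFPhi, 11.8 ± 0.603 CPM in eGFPlo), and Rnaseh1, which removes RNA from DNA hybrids, fell 1.31-fold. The count of 5 that rose was 3 without eGFPhi replicate 3, without eGFPlo replicate 3 or with DESeq2.

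Of 40 tested genes that process, modify or degrade mitochondrial RNA, 6 rose, 16 fell and 18 did not pass, with a median log2 fold change of -0.21. Over all tested genes 64% passed, 32.3% higher and 31.7% lower, so calls in both directions together were no more common here. Within this list falls outnumbered rises. Lrpprc, which binds and stabilises mitochondrial mRNAs, had 79.3, 81.8 and 79.6 CPM in eGFPhi and 107, 102 and 103 CPM in eGFPlo libraries, all lower in eGFPhi (1.29-fold, log2 fold change -0.37, SE 0.03, edgeR adjusted p = 6.75e-05). Rexo2, which degrades short RNA fragments in the organelle, fell 1.65-fold (27.6 ± 1.95 CPM in eGFPhi, 45.7 ± 2.37 CPM in eGFPlo). Hsd17b10, a subunit of the RNase P that cuts the 5′ ends of tRNAs, rose 1.95-fold (37.5 ± 4.397 CPM in eGFPhi, 19.2 ± 0.835 CPM in eGFPlo). The other genes that cut tRNA ends were looked at after their values were seen. A link between any of these genes and the tRNA counts was not tested. Prorp, the catalytic subunit of that RNase P, fell 1.19-fold (15.6 ± 0.823 CPM in eGFPhi, 18.5 ± 1.08 CPM in eGFPlo, edgeR adjusted p = 0.0292). Its partner Trmt10c averaged 41.9 ± 1.92 CPM in eGFPhi and 42.8 ± 2.99 CPM in eGFPlo (edgeR adjusted p = 0.779). Elac2, which cuts the 3′ ends, fell 1.46-fold (38.5 ± 3.12 CPM in eGFPhi, 56.6 ± 2.59 CPM in eGFPlo, edgeR adjusted p = 3.00e-04). Nsun4, the rRNA methyltransferase that works with Mterf4, rose 1.77-fold (21.9 ± 1.13 CPM in eGFPhi, 12.4 ± 0.541 CPM in eGFPlo).

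Of 22 tested translation and assembly factors, 3 rose, 8 fell and 11 did not pass (median log2 fold change -0.16). The cytochrome c oxidase copper factors split: Cox11 fell 1.75-fold and Cox17 1.31-fold, while Sco1 rose 1.68-fold (22.7 ± 2.44 CPM in eGFPhi, 13.4 ± 1.83 CPM in eGFPlo). Mrrf, which recycles mitochondrial ribosomes, rose 1.37-fold. Among 21 genes of mitochondrial mass and biogenesis 6 rose, 8 fell and 7 did not pass (median log2 fold change -0.04). With 32.3% higher and 31.7% lower over all tested genes, the share called in both lists was close to or below the background. Ppargc1a, a coactivator of mitochondrial biogenesis, had 7.12, 7.26 and 7.30 CPM in eGFPhi and 2.23, 1.61 and 1.61 CPM in eGFPlo libraries, a 4.04-fold rise (log2 fold change 2.01, SE 0.15, edgeR adjusted p = 2.38e-05). The chaperone Hspd1 fell 1.46-fold, citrate synthase Cs 1.42-fold and the transcription factor Gabpa, which activates nuclear respiratory genes, 1.36-fold.

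The nuclear partners of the mRNAs above, chosen subunits of the same complexes, were mostly lower in eGFPhi. Over all tested genes 31.7% fell and 32.3% rose. For complex I 13 of 15 fell and none rose (median log2 fold change -0.42), with Ndufa1 1.97-fold lower (9.42 ± 0.522 CPM in eGFPhi, 18.6 ± 0.874 CPM in eGFPlo), Ndufc2 1.89-fold and Ndufv2 1.49-fold lower. For complex III 6 of 9 fell and none rose (median -0.24), led by Uqcrq (33.5 ± 2.19 CPM in eGFPhi, 59.9 ± 1.63 CPM in eGFPlo). Uqcrfs1, the Rieske iron-sulfur protein, fell 1.41-fold, Cyc1, cytochrome c1, 1.47-fold and Uqcrc1 1.18-fold. For complex IV 9 of 10 fell and none rose (median -0.46), among them Cox7b (1.53-fold), Cox7a2 (1.54-fold), Cox5b (1.35-fold) and Cox8a (1.33-fold). For the ATP synthase 10 of 14 fell and 1, Atp5d, chosen here after its value was seen, rose (median -0.54); Atp5b, the catalytic subunit, was 273 ± 1.98 CPM in eGFPhi and 412 ± 14.1 CPM in eGFPlo, and Atp5a1, Atp5h and Atp5pb fell 1.40-fold, 1.81-fold and 1.53-fold. All 4 subunits of complex II, succinate dehydrogenase, which has none in the mitochondrial genome, passed as lower (Sdhc 1.77-fold, Sdhd 1.27-fold, Sdha 1.16-fold and Sdhb 1.11-fold). The Sdhb call (edgeR adjusted p = 0.0455) was lost with DESeq2 (0.172), upper-quartile factors (0.0821), no filter or a stricter one (0.111 and 0.0634), and without any single library other than eGFPlo replicate 1 (0.0662 to 0.133). The medians of the mitochondrial mRNAs of the same complexes were -0.06 for complex I, -0.04 for complex III, 0.01 for complex IV and 0.06 for the ATP synthase, nearer to that of all genes; the difference between nuclear and mitochondrial subunits was not tested.

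**Figure D5:**
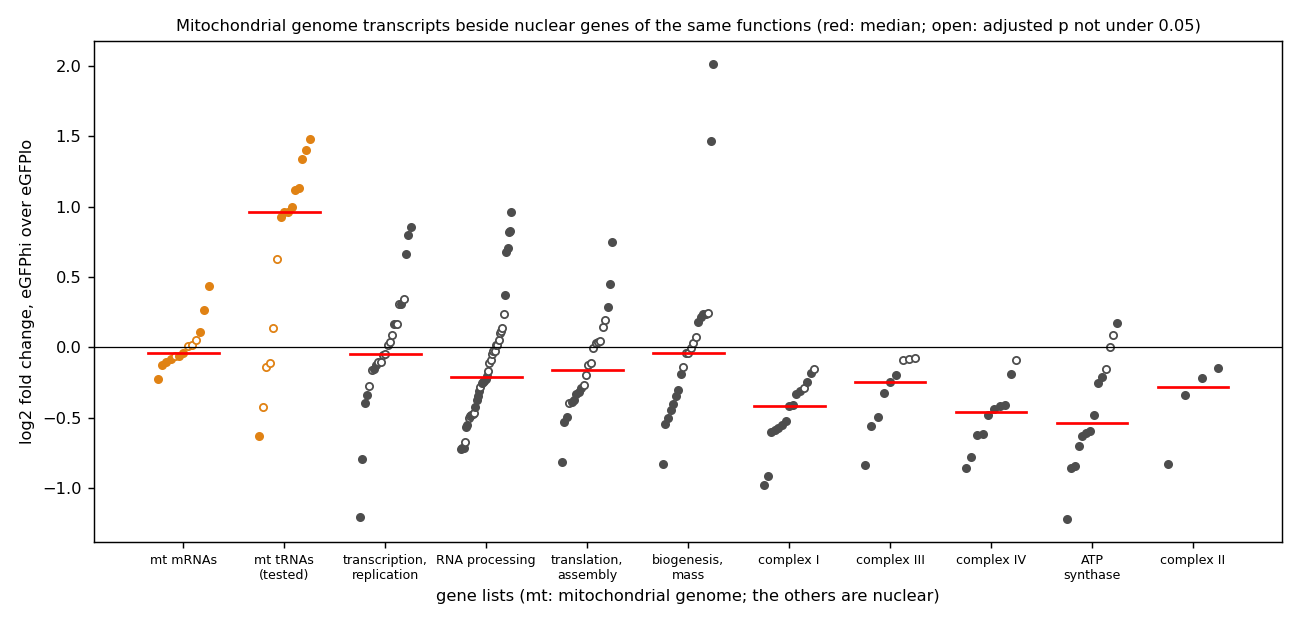
Log2 fold change (eGFPhi over eGFPlo) of the 13 mitochondrial mRNAs and 15 tested tRNAs, in orange, beside nuclear genes of 9 lists, in grey, with a red line at each median and open points for genes not past the threshold. The mitochondrial mRNAs lie close to 0, the tRNAs mostly above it and the nuclear subunits of the 5 respiratory complexes mostly below it.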

How the data were processed

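Per the labels' protocols, poly-T beads selected the RNA, a stranded kit turned it into paired-end libraries, and an Illumina NovaSeq was the sequencer. The submitters' processing notes list edgeR, StringTie, HISAT2 and CASAVA 1.8 but no role for any, and the builds hg38 and GRCm38. Which tool counted the reads, and with which strand setting, is not given in the sources used here. Whole-number counts for every gene and library were deposited, per the file headers, and were taken as raw. It also gives FPKM, which the authors computed from those counts (implied gene lengths equalled the annotated ones of all 37 members within 0.0393%).

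Counts were analysed with edgeR 4.0.16 in R 4.3.3 (filterByExpr with a minimum count of 10 and total of 15, TMM, quasi-likelihood F test, group as the only term, Benjamini-Hochberg over 18081 genes), which kept 99.7 to 99.9% of counts. Nuclear copies were found with blastn 2.17.0 (at least 90% identity over 100 bases). Alternatives used DESeq2 1.42.0, limma 3.58.1 (voom), other factors, filters, denominators and left-out libraries; adding nuclear copies was chosen after seeing the data. The fit was also run on simulated counts in which few genes changed, unlike these data. That run is no check of its error rate here. Both groups use the replicate numbers 1 to 3, and no label says that these pair libraries.

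The members and gene lists were chosen with earlier results of these data known. Every member may be named; values per library are given for mRNAs, rRNAs and the 4 tRNAs with the largest mean CPM, plus mt-Tp, mt-Tm and the low-count tRNAs, added after their values were seen. From each nuclear list the text names at most 4 genes past the threshold with the smallest p, plus Polrmt, Tfam and Lrpprc. Mterf1a, Mterf1b, Prorp, Trmt10c, Elac2 and Atp5d were added after their values were seen. Sequences and positions are from GENCODE M21 on GRCm38, whose coordinates equal those of the table for all 37 members.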

Additional observations from a re-analysis of the deposited data

How the results depend on the processing

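mt-Tg, mt-Tv, mt-Th, mt-Tp and mt-Tl1 kept direction and call under all 16 alternatives run, although mt-Th and mt-Tp met the stricter filter through eGFPhi libraries alone, so that setting is no support for their rise. With an assumed coefficient of variation of 0.2, against an estimated 0.0941, 3637 genes rose and 2982 fell, of the members 8 rose and 1 fell, all of them tRNAs, and of the genes of the 9 nuclear lists 11 rose and 26 fell. Members that rose numbered 9 with DESeq2 and 9 with the stricter filter, which leaves out low-count tRNAs. Without single libraries 4 to 8 members fell, with 4 without eGFPhi replicate 1 or eGFPlo replicate 3. The log2 fold change of mt-Co2 was -0.025 to 0.0368 and that of mt-Tf -0.249 to 0.0805 without single libraries, and that of mt-Co2 was -0.0135 with nuclear copies added; the cause was not tested. eGFPhi minus eGFPlo, the rRNA share was 0.833 percentage points of all counts, 1.09 of nuclear counts and 1.51 of nuclear protein-coding counts. The tRNA share was 0.002, 0.00238 and 0.00297 points in the same order, and the mRNA share was -0.0555 points of all counts and -0.0255 of nuclear protein-coding counts, where the groups overlap; the denominators differ by construction.

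With the replicate number as a block, 12 members rose and 6 fell; mt-Atp8, mt-Cytb and mt-Ta no longer passed, nor did Tfam and Sdhb. Across genes, same-numbered libraries showed no shared residuals (r = -0.0133, 0.000555 and -0.0108), so the numbers were not treated as pairs. Depth limits the tRNAs, with 50 to 218 light-strand tRNA counts per library.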
